A study of Homo sapiens with 8 samples.

Results

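The insulin-like growth factor (IGF) axis is described here by 10 genes: the ligand IGF2, the binding proteins IGFBP1, IGFBP2, IGFBP3, IGFBP4, and IGFBP6, the receptors IGF1R, IGF2R, and INSR, and the adaptor IRS2. The members were chosen by gene symbol and were matched to 10 of the 60230 genes of the count table by Ensembl identifier. RNA was sequenced from CYP3A4-overexpressing HepG2 cells, a line of human liver tumour cells made to overexpress the drug-metabolizing enzyme cytochrome P450 3A4 and grown with blasticidin in medium with fetal bovine serum. The 4 groups of 2 samples each were treated for 24 h with 0.2% DMSO, compound 4, compound 5, or compound 6, and 1 sample of each group came from day 1 and 1 from day 2. Compound 4 was labelled metylcresol, compound 5 tetrabut, and compound 6 cyclohexil. All are chemicals of plastic production in which a short carbon bridge joins a pair of substituted phenol rings. Compound 6 has cyclohexyl groups where compound 4 has tert-butyl groups, and compound 5 has an ethane-derived bridge and tert-butyl groups only. Each was given at its own 50% inhibitory concentration, so that concentrations differed between the compounds. The overexpressed enzyme was shared by all 4 groups, and parental cells were not part of the comparison.

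IGF2 is a fetal growth factor that many liver tumour cells go on making. It binds IGF1R, the tyrosine kinase through which IGFs signal, and the closely related insulin receptor INSR, whereas IGF2R takes IGF2 up for breakdown in lysosomes and also sorts lysosomal enzymes. Secreted IGFBPs hold the IGFs in the extracellular space and decide how much reaches the receptors. IGFBP1 is the liver's acutely regulated binding protein. Its gene is held down by insulin through the phosphorylation of FOXO factors and is raised by fasting, hypoxia, and amino acid shortage. IRS2 passes the signal from activated receptors to phosphoinositide 3-kinase and is another gene that insulin holds down in liver.

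Libraries held 9472261 to 13308975 counts. All 10 liver markers (such as albumin and HNF4A) were detected, and their summed level was 39596 and 41411 CPM (counts relative to the scaled size of each library) in DMSO and went down to 30961 CPM in treated libraries. Albumin was the largest part of this sum, and single markers went both ways. With compound 4, edgeR called AFP, APOA1, and TF lower and TTR higher (1.58-fold, adjusted p = 0.0365). HNF4A had a log2 fold change of 0.08 there and was not called. The fibroblast markers COL1A2 and DCN, the endothelial marker KDR, and the blood markers PTPRC and CD3E were at 0 in every library. The summed fibroblast markers went from 1.64 and 2.66 CPM in DMSO up to 8.72 CPM in treated libraries and the blood markers from 27.2 and 38.5 CPM up to 57.6 CPM, each through its 1 tested gene (PDGFRB and CD68). The endothelial markers, of which 0 were tested, summed to 0.904 and 1.28 CPM in DMSO and to at most 2.06 CPM in treated libraries. The part of these markers in the results below was not tested. Replicates differed by more than counting noise in every group, with 5.82 (DMSO) to 18.4 (compound 4) times the variance that counting alone gives. In compound 4, replicate 1 lay above replicate 2 by a median of 0.19 on the log2 scale over the 3331 longest tested genes and below it over the 3334 shortest (-0.16). The column labels of replicate 1 of compound 4 and of compound 5 hold the word merged, unlike those of all other libraries. The part of this in the replicate differences was not tested. Against DMSO, compound 5 had a median log2 fold change of 0.10 over the longest genes and -0.18 over the shortest, compound 6 had 0.06 and -0.05, and compound 4 had -0.03 and 0.05. The receptors are among the longest genes.

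IGFBP1 and IGFBP3 rose with each of the 3 compounds, and no other member passed the test against DMSO. The rise of IGFBP1 with compound 6 did not pass when the day was added to the edgeR fit (adjusted p = 0.0625). Of the 10 members, 9 passed the filter on low counts, and edgeR's quasi-likelihood test called 2 of these 9 higher and 0 lower under each of the 3 compounds. At an unadjusted p under 0.05, IGF2 was lower with compounds 4 and 6, and of the members not called IGFBP6 was higher with compound 4, IGF2R and INSR with compound 5, and IGF2R with compound 6. DESeq2 called 3 members under each compound, adding IGF2 as lower with compound 4 and IGF2R as higher with compounds 5 and 6. A call is a Benjamini-Hochberg adjusted p under 0.05 over all 13404 tested genes. Over these genes, 6.5% were called higher and 5.42% lower under compound 4, 13.9% and 14.2% under compound 5, and 2.8% and 1.6% under compound 6. The median log2 fold change of the 9 members was 0.31, 0.34, and 0.19 with compounds 4, 5, and 6, beside 0.0001, -0.03, and 0.003 over all tested genes. Adjusted p-values below are from edgeR, and fold changes are on the log2 scale with their standard errors. The 3 comparisons share the same 2 DMSO libraries, and the p-values measure the spread between these samples only. An exact two-sided permutation test on 2 against 2 samples cannot give a p below 0.333.

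**Figure D1:**
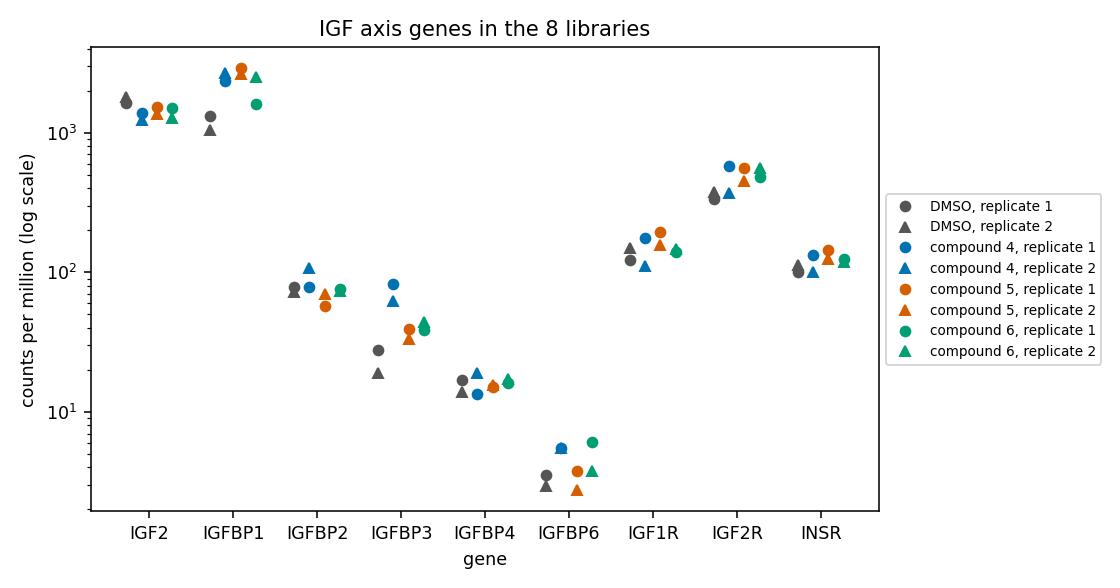
CPM (log axis) of the 9 members with counts in each of the 8 libraries; colour gives the treatment, circles are replicate 1 and triangles replicate 2. IGFBP1 stood at 1051 and 1327 CPM in DMSO and at 1616 to 2883 CPM in treated libraries, IGFBP3 at 18.99 and 27.7 CPM in DMSO and at 33.3 to 81.7 CPM in treated libraries.

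IGFBP1 lies at chr7:45888357-45893668 on the plus strand (GRCh38). It held 1327 and 1051 CPM in the DMSO libraries, 2336 and 2665 under compound 4, 2883 and 2649 under compound 5, and 1616 and 2486 under compound 6. All 6 treated libraries lay above both DMSO libraries, and replicate 1 of compound 6 was the lowest of them. The log2 fold change was 1.07 ± 0.19 with compound 4 (2.10-fold, adjusted p = 0.00508), 1.22 ± 0.19 with compound 5 (2.33-fold, adjusted p = 0.00119), and 0.79 ± 0.19 with compound 6 (1.73-fold, adjusted p = 0.0403). The compound 6 call was lost when the day was added as a replicate block (adjusted p = 0.0625, the highest of a range from 3.29e-11 over 10 alternatives). It was also lost without DMSO replicate 1 (adjusted p = 0.0996), DMSO replicate 2 (0.273), compound 5 replicate 1 (0.0674), compound 5 replicate 2 (0.0632), or compound 6 replicate 2 (0.369), and the compound 4 call without DMSO replicate 2 (0.0731). Without compound 6 replicate 2, the log2 fold change with compound 6 was 0.45. Over the 10 alternatives, the compound 5 value ran from 1.12 to 1.43.

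IGFBP3 is the main IGF carrier of blood plasma and is also made by tumour cells. Its gene lies at chr7:45912245-45921874 on the minus strand, 18.6 kb from the end of IGFBP1. IGFBP3 held 27.7 and 18.99 CPM in the DMSO libraries, 81.7 and 62.6 under compound 4, 39.5 and 33.3 under compound 5, and 38.5 and 43.8 under compound 6. The compound 4 libraries were the highest and did not overlap any other group. The log2 fold change was 1.63 ± 0.19 with compound 4 (3.11-fold, adjusted p = 8.67e-04), 0.65 ± 0.19 with compound 5 (1.57-fold, adjusted p = 0.0297), and 0.83 ± 0.19 with compound 6 (1.77-fold, adjusted p = 0.0388). Scaling by library size alone ended the compound 5 call (adjusted p = 0.0538, the highest of a range from 1.09e-04), as did leaving out DMSO replicate 2 (0.185), compound 5 replicate 1 (0.162), or compound 5 replicate 2 (0.0534). Without DMSO replicate 2 the log2 fold change with compound 5 was 0.42. The compound 6 call was lost without DMSO replicate 1 (0.0564), DMSO replicate 2 (0.272), compound 5 replicate 1 (0.0605), compound 5 replicate 2 (0.0575), or compound 6 replicate 2 (0.327). The compound 4 call held in all 8 such fits, with adjusted p-values of up to 0.0152.

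**Figure D2:**
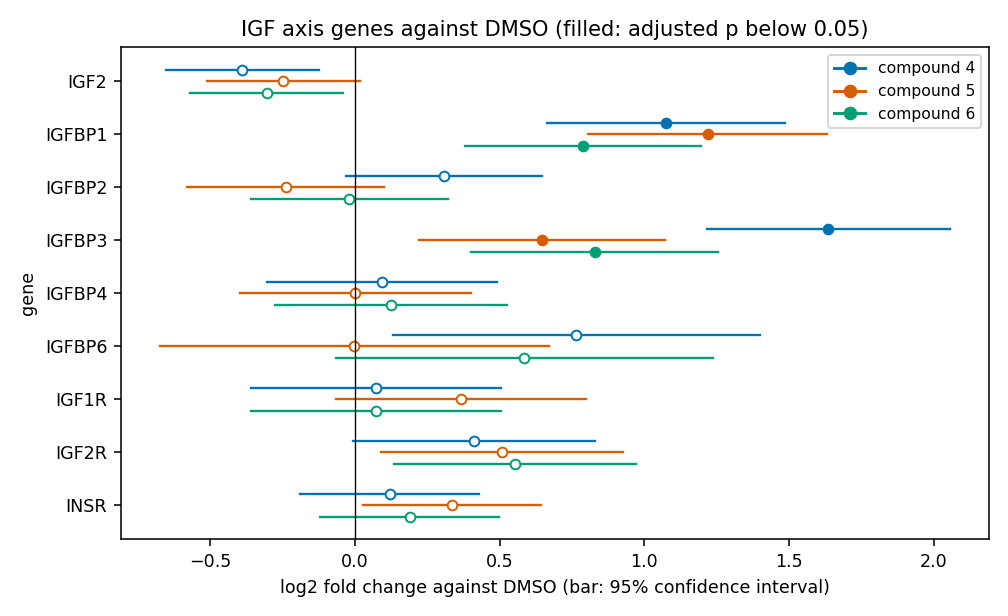
Log2 fold change of the 9 tested members against DMSO with 95% confidence intervals, by compound; filled circles passed the test. IGFBP1 and IGFBP3 are filled for all 3 compounds, and the highest value is IGFBP3 with compound 4 (1.63).

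The chromosomal neighbours of this pair did not pass the test. GTF2IP13, the nearest tested gene on the IGFBP1 side at 73.1 kb, had log2 fold changes of -0.05, -0.17, and -0.05 with compounds 4, 5, and 6. TNS3, the nearest on the IGFBP3 side at 1353 kb, had -0.09, -0.06, and -0.10. Neither gene shares sequence with the pair, and none of the 31-base words of IGFBP1 or IGFBP3 transcripts occurs in another gene.

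The upstream sequence of IGFBP3 is shown because it was the member with the highest fold change. The RefSeq start used for it lies inside the gene span given above, which begins at chr7:45921874 on this strand. The window is therefore upstream of the RefSeq start and within that span. The 250 bases before the RefSeq start (GRCh38.p14, chr7:45921273-45921522, minus strand) are printed 5′ to 3′, with matches to GCGTG, the core bound by the aryl hydrocarbon receptor, in capitals on either strand.
IGFBP3: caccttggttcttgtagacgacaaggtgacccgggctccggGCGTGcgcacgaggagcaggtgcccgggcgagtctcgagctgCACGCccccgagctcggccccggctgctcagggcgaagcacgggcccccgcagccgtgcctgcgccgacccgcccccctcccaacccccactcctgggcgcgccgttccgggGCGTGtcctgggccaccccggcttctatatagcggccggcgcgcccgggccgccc
The window holds 3 matches, and 32.2% of the 35116 RefSeq promoter windows of this length hold at least 1. It holds no match to GTAAACA (the forkhead core, 2.98% of windows), CAAAACA (the insulin response element core, 4.30%), TGATGNAA (the core bound by ATF4 with C/EBP proteins, 3.14%), or ACGTG (the hypoxia response element core, 18.5%). Windows were given for 8 members and not for IGFBP1 or IGF2, whose upstream sequence was not searched. No match spans a shared base with another motif. GCGTG was found in the windows of IGFBP2, IGFBP3, and IGF1R, ACGTG in those of IGF1R and IGF2R, GTAAACA in that of IGFBP6, and CAAAACA in that of IRS2.

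IGF2 lies at chr11:2129112-2149603 on the minus strand. It held 1623 and 1806 CPM in the DMSO libraries, 1393 and 1226 under compound 4, 1519 and 1369.9 under compound 5, and 1493.5 and 1281 under compound 6. All 6 treated libraries lay below both DMSO libraries, but the differences did not pass the test. The log2 fold changes were -0.39 ± 0.12 (adjusted p = 0.0590), -0.25 ± 0.12 (0.143), and -0.31 ± 0.12 (0.181) with compounds 4, 5, and 6. With compound 4, IGF2 was called lower in 5 of 10 alternatives, whose adjusted p ranged from 0.00595 to 0.0994, and also without compound 4 replicate 1 (0.0412). With compound 5, it was called lower in 2 of 10 (range 0.0479 to 0.195), under scaling by library size alone (-0.35, adjusted p = 0.0485) and under a correction for exon length with the replicate block (-0.30, 0.0479). With 1 library left out, the IGF2 value ran from -0.48 to -0.29 with compound 4, from -0.32 to -0.14 with compound 5 (the latter without DMSO replicate 2), and from -0.39 to -0.19 with compound 6 (the latter without compound 6 replicate 2). Of the 31-base words of IGF2 transcripts, 73.6% occur in other genes, mainly the read-through gene INS-IGF2 and a second gene model over the same exons (ENSG00000284779), both listed at 0 in all 8 libraries, so that their sum with IGF2 is the IGF2 count itself. The neighbouring imprinted noncoding RNA H19 was near 0, with 0 to 6 counts.

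The ratio of IGFBP1 to IGF2 counts does not depend on how libraries are scaled, but a trend with exon length can move it. It was chosen after the values of both genes had been seen. It was 0.817 and 0.582 in DMSO, 1.68 and 2.17 under compound 4, 1.90 and 1.93 under compound 5, and 1.08 and 1.94 under compound 6. IGF2 counts exceeded IGFBP1 counts in both DMSO libraries, and IGFBP1 counts exceeded IGF2 counts in all 6 treated libraries. This compares counts and not levels, since IGF2 has the longer exons (6979 against 1653 bases), and per kilobase IGFBP1 already stood above IGF2 in DMSO (719 against 246 CPM per kb). IGFBP1 made up 90.7% to 96.2% of the counts of the 5 binding proteins in every library.

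**Figure D3:**
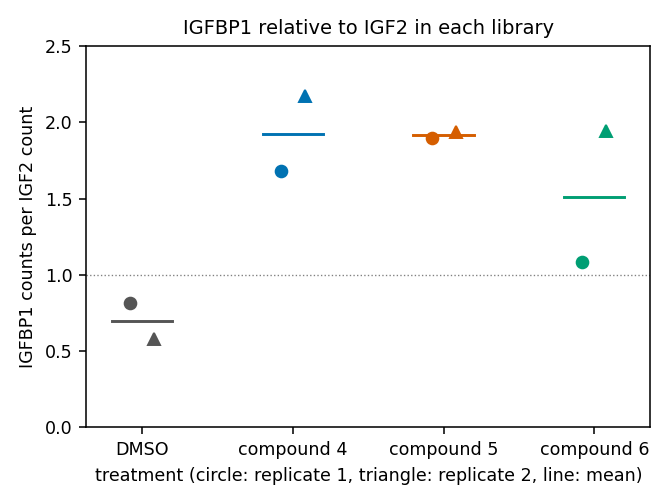
IGFBP1 counts per IGF2 count in each library by treatment; circles are replicate 1, triangles replicate 2, solid lines the group means, and the dotted line equal counts, which are not equal levels per exon length. Both DMSO libraries lie below 1 (0.817 and 0.582) and all treated libraries above it, the lowest being compound 6 replicate 1 (1.08).

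The other binding proteins did not pass the test against DMSO. IGFBP2, a binding protein made in quantity by fetal liver, held 78.7 and 71.9 CPM in the DMSO libraries, 78.9 and 107 under compound 4, 56.9 and 70.4 under compound 5, and 75.4 and 73.0 under compound 6. The compound 4 libraries lay above the highest DMSO library and the compound 5 libraries below the lowest. Its log2 fold changes were 0.31 ± 0.15 (adjusted p = 0.228), -0.24 ± 0.15 (0.268), and -0.02 ± 0.15 (0.963) with compounds 4, 5, and 6. With 1 library left out, the value for compound 4 ran from 0.08 without compound 4 replicate 2 to 0.51 without compound 4 replicate 1, where it was called (adjusted p = 0.0333), and that for compound 5 from -0.40 without compound 5 replicate 2 to -0.07 without compound 5 replicate 1. IGFBP6, which prefers IGF2 over IGF1, was the least counted of the detected members and held 3.54 and 2.96 CPM in the DMSO libraries, 5.47 and 5.54 under compound 4, 3.76 and 2.75 under compound 5, and 6.05 and 3.79 under compound 6. Compounds 4 and 6 did not overlap DMSO in IGFBP6, and compound 5 did. Its log2 fold changes were 0.76 ± 0.29 (adjusted p = 0.115), 0.00 ± 0.30 (0.997), and 0.59 ± 0.29 (0.302). The compound 6 value of IGFBP6 was 0.25 without compound 6 replicate 1 and 0.91 without compound 6 replicate 2. IGFBP4, which is cleaved by the protease PAPPA when IGF is bound, ranged from 13.5 to 19.1 CPM over the 8 libraries. Each compound overlapped DMSO, and the log2 fold changes of IGFBP4 were 0.09, 0.00, and 0.12.

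None of the 3 receptors passed the test. IGF2R (chr6:159969099-160113507, plus strand) held 333 and 379 CPM in the DMSO libraries, 578 and 369 under compound 4, 559 and 452 under compound 5, and 484 and 559 under compound 6. Only replicate 2 of compound 4 lay within the DMSO range. Its log2 fold changes were 0.41 ± 0.19 (adjusted p = 0.192), 0.51 ± 0.19 (0.0684), and 0.55 ± 0.19 (0.129) with compounds 4, 5, and 6. When every library was corrected for a trend with exon length, IGF2R was called with all 3 compounds, at log2 fold changes of 0.45 (adjusted p = 0.0187), 0.33 (0.0406), and 0.46 (0.0318). The adjusted p of IGF2R over all alternatives ranged from 0.00879 to 0.244, from 9.65e-05 to 0.137, and from 1.45e-04 to 0.156. With 1 library left out, the value for compound 4 ran from 0.05 without compound 4 replicate 1 to 0.72 without compound 4 replicate 2, where it was called (adjusted p = 0.0111). IGF2R was also called with compounds 5 and 6 without compound 4 replicate 1 (0.00854 and 0.0199) or replicate 2 (0.00700 and 0.0181). The exon-length correction was chosen after the difference between the compound 4 replicates had been seen.

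IGF1R (chr15:98648539-98964530, plus strand) held 122 and 150 CPM in the DMSO libraries, 176 and 111 under compound 4, 195 and 156 under compound 5, and 140 and 147 under compound 6. The compound 4 replicates spanned the whole DMSO range, and both compound 5 libraries lay above it. The log2 fold changes were 0.07 ± 0.20, 0.37 ± 0.20, and 0.07 ± 0.20, with adjusted p-values of 0.855, 0.181, and 0.882. INSR (chr19:7112255-7294034, minus strand) held 101 and 112 CPM in the DMSO libraries, 132 and 99.8 under compound 4, 144 and 125 under compound 5, and 124 and 119 under compound 6. As with IGF1R, the compound 4 replicates lay on either side of DMSO and the compound 5 libraries above it. INSR had log2 fold changes of 0.12 ± 0.14, 0.34 ± 0.14, and 0.19 ± 0.14, with adjusted p-values of 0.629, 0.0951, and 0.502. With compound 5, IGF1R and INSR were both called higher without a filter (adjusted p = 0.0137 and 0.0297) and with only the 2 groups compared (0.0204 and 0.0130), in ranges over the alternatives of 0.0137 to 0.345 and 0.0130 to 0.245. They were also called without compound 4 replicate 1 (0.0448 and 0.0292) or compound 4 replicate 2 (0.0344 and 0.0206). With the exon-length correction and the replicate block, these compound 5 values were lowest, at 0.22 and 0.23, and neither was called. The IGF1R value was 0.23 without DMSO replicate 1 or compound 5 replicate 1, and the INSR value with compound 6 was 0.12 without DMSO replicate 1. The merged exons of IGF2R, IGF1R, and INSR span 17843, 13941, and 10451 bases, all among the 3331 longest tested genes (7183 bases or more), and in all 3 the first compound 4 replicate exceeded the second. The part of the length trend in the receptor values was measured only by this correction. Over the 8 libraries, IGF1R and INSR had a Pearson r of 0.942, IGF2R and INSR one of 0.871, and IGF1R and IGF2R one of 0.769. These values share the libraries and their length trend.

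IRS2 (chr13:109752698-109786568, minus strand) had 0 counts in all 8 libraries. Over 92401658 counts, a count of 0 allows a level of up to 0.0325 CPM on the scaled library sizes, and of up to 0.234 to 0.313 CPM in a single library, from counting error alone. It did not pass the filter on low counts and was not tested. Its transcripts are mostly unique, with 3.91% of their 31-base words in other genes. Farther along the chromosome, RAB20 had 188 to 290 counts and CARS2 415 to 699, whereas the nearer COL4A1 had 0 to 21. The other insulin receptor substrate of liver, IRS1, had 506 to 834 counts per library.

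Per kilobase of exon, the members in DMSO ranked from IGFBP1 (719 CPM per kb, range 636 to 803) through IGF2 (246, 233 to 259), IGF2R (19.9, 18.6 to 21.2), IGFBP2 (15.8, 15.1 to 16.5), INSR (10.2, 9.67 to 10.7), IGF1R (9.76, 8.76 to 10.8), IGFBP4 (6.99, 6.28 to 7.70), and IGFBP3 (5.10, 4.15 to 6.05) to IGFBP6 (2.42, 2.20 to 2.63). INSR and IGF1R did not differ in this order beyond their spread, and the ranges of all other neighbours were apart. With compound 4, IGFBP3 stood at 15.8 CPM per kb (13.7 to 17.9), above IGFBP4 at 7.41 (6.14 to 8.69). In bulk samples a lower number of cells making a transcript and less transcript per cell cannot be told apart.

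Compounds were also compared directly in 3 pairs, with p-values adjusted over all genes in each pair and with each compound at its own concentration. Against compound 4, compound 5 had 2 of the 9 tested members lower and 0 higher, where 7.04% of all tested genes were lower and 6.91% higher. IGFBP3 was lower with compound 5 than with compound 4 by a log2 value of -0.99 ± 0.18 (0.504-fold, adjusted p = 0.0105), and IGFBP2 by -0.55 ± 0.15 (0.684-fold, adjusted p = 0.0416). The IGFBP3 difference lost its call without compound 5 replicate 1 (0.0615) or replicate 2 (0.0889). The IGFBP2 difference lost it in 7 of the 8 fits that left out 1 library, all but the one without compound 4 replicate 1, at adjusted p-values of up to 0.263 and a smallest difference of -0.30 without compound 4 replicate 2. Without compound 4 replicate 1, IGF1R and INSR were also called, both higher with compound 5 (adjusted p = 0.0152 and 0.0377). The IGFBP2 call was also lost when the 2 groups were fitted alone (adjusted p = 0.0931, the highest of a range from 0.00222). IGFBP1 differed between compounds 5 and 4 by 0.15 on the log2 scale, with a 95% interval from -0.26 to 0.55. Over the alternatives, this difference ran from 0.08 to 0.39.

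Between compound 5 and compound 6, 0 of the 9 members passed the test (4.76% of all genes were called higher and 5.16% lower). IGFBP1, the 1 member with an unadjusted p under 0.05 in edgeR, was 0.43 higher with compound 5 (95% interval 0.02 to 0.84, adjusted p = 0.159), and DESeq2 called 0 members. This IGFBP1 difference ran from 0.15 without compound 6 replicate 1 to 0.79 without compound 6 replicate 2, where it was called (adjusted p = 0.0247), and it was also called without a filter (6.87e-04, in a range over the alternatives of up to 0.241). Compounds 4 and 6, which differ by the tert-butyl and cyclohexyl groups, had 0 members called, where 0.0224% of all genes were called higher and 0.0224% lower. IGFBP3, the 1 member with an unadjusted p under 0.05, was 0.81 higher with compound 4 than with compound 6 (95% interval 0.40 to 1.21, 1.75-fold, adjusted p = 0.216 in edgeR), and DESeq2 called it (adjusted p = 0.0215, in a range from 9.64e-06 to 0.2497 over the alternatives). The intervals of the other 8 members between compounds 4 and 6 all include 0.

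Most other genes of the IGF system were near 0. Of 22 genes listed outside the members, 5 passed the filter: IRS1, STC2, and the RNA-binding proteins IGF2BP1, IGF2BP2, and IGF2BP3, which bind IGF2 transcripts. The edgeR test called 0 of them against DMSO (2, 3, and 2 at an unadjusted p under 0.05 with compounds 4, 5, and 6), and DESeq2 called 0, 1, and 1. STC2, an inhibitor of the protease PAPPA, had log2 fold changes of 0.29, 0.35, and 0.41 (adjusted p = 0.159, 0.0552, and 0.0887). IGF1 had 0 to 3 counts per library, IGFBP5 0, IGFBP7 0 to 1, and PAPPA 0 to 1.

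Of 41 genes of insulin and IGF receptor signalling, 40 were tested. Under compound 4, 6 of them rose and 1 fell, under compound 5, 11 rose and 1 fell, and under compound 6, 4 rose and 0 fell (1, GAB1, was lower at an unadjusted p under 0.05). Over all tested genes, 6.5% were called higher and 5.42% lower under compound 4, 13.9% and 14.2% under compound 5, and 2.8% and 1.6% under compound 6. Their median log2 fold changes were 0.03, 0.21, and 0.05. GRB10, an adaptor that binds the activated insulin and IGF1 receptors and restrains them, rose with all 3 compounds, from a mean of 40.3 CPM in DMSO to 59.2, 83.3, and 67.9 CPM (adjusted p = 0.0326, 6.92e-04, and 0.0189). TRIB3, a pseudokinase that binds AKT and is raised by ATF4, rose from 190.9 CPM to 618 with compound 5 and 346 with compound 6 (adjusted p = 2.91e-04 and 0.0342), and was at 274 CPM with compound 4 (adjusted p = 0.108). SOCS3, a feedback inhibitor of cytokine and insulin receptor signals, was counted at 1.59 CPM in DMSO and rose to 3.71 with compound 4 and 3.14 with compound 5 (adjusted p = 0.0338 and 0.0458), and was at 3.57 CPM with compound 6 (2.27-fold, adjusted p = 0.0689). RICTOR, a subunit of the kinase complex mTORC2, rose with compound 5 from 29.9 to 57.2 CPM (adjusted p = 0.00505). GAB1, a docking protein, fell by 0.95 on the log2 scale with compound 4 (adjusted p = 0.0159).

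A list that mixes FOXO factors with genes held down by insulin held genes that moved in both directions. Of 19 FOXO factors and genes held down by insulin, 17 were tested, and 3 rose and 4 fell under compound 4, 5 rose and 4 fell under compound 5, and 1 rose and 2 fell under compound 6. The shares over all tested genes were 6.5% higher and 5.42% lower, 13.9% and 14.2%, and 2.8% and 1.6%. TRIB1, a pseudokinase that promotes degradation of C/EBP-alpha, rose with all 3 compounds, from 66.8 CPM to 131, 147, and 128 CPM (adjusted p = 0.00208, 3.94e-04, and 0.00789). CITED2, a transcriptional coregulator, fell with all 3, from 27.6 CPM to 16.7, 11.3, and 14.0 CPM (adjusted p = 0.0141, 4.42e-04, and 0.0104). KLF15, a fasting-induced transcription factor, rose with compounds 4 and 5 by 0.84 and 1.15 on the log2 scale, and the stress gene SESN1 had -0.99 and -1.25 (adjusted p = 0.00919 and 0.00142). TXNIP, which limits glucose uptake, changed with compound 5 by -0.93 (adjusted p = 6.43e-04). PCK1, PPARGC1A, and G6PC1 of this list were not among the genes named for their change. PCK1 held 39.7 and 33.8 CPM in DMSO and 48.1 and 44.7 with compound 5. PPARGC1A held 25.3 and 29.2 CPM in DMSO and 52.7 and 48.8 with compound 5. G6PC1 held 4.73 and 4.68 CPM in DMSO, 5.04 and 4.95 with compound 5, and 4.38 and 2.47 with compound 6.

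Of 10 genes raised by insulin in liver, 9 were tested, of which 1 rose under each compound, and 4, 5, and 1 fell under compounds 4, 5, and 6, beside 5.42%, 14.2%, and 1.6% called lower and 6.5%, 13.9%, and 2.8% called higher over all tested genes. Their median log2 fold changes were -0.61, -0.52, and -0.25. The gene that rose was EGR1, an immediate early transcription factor, from 3.09 CPM to 13.6, 53.4, and 17.7 CPM (adjusted p = 0.00549, 9.16e-05, and 0.00671). PNPLA3, a lipid droplet protein, fell with all 3 compounds, from 25.8 CPM to 8.61, 6.66, and 15.5 CPM (adjusted p = 5.20e-04, 9.66e-05, and 0.0321). SCD, the desaturase that makes oleate, fell with compounds 4 and 5 from 1661 CPM to 869 and 620 CPM, and FASN, the fatty acid synthase, from 1031 CPM to 611 and 626 CPM. ELOVL6, a fatty acid elongase, fell with compound 5 by 1.15 on the log2 scale. These lipid genes are also targets of SREBP factors.

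**Figure D4:**
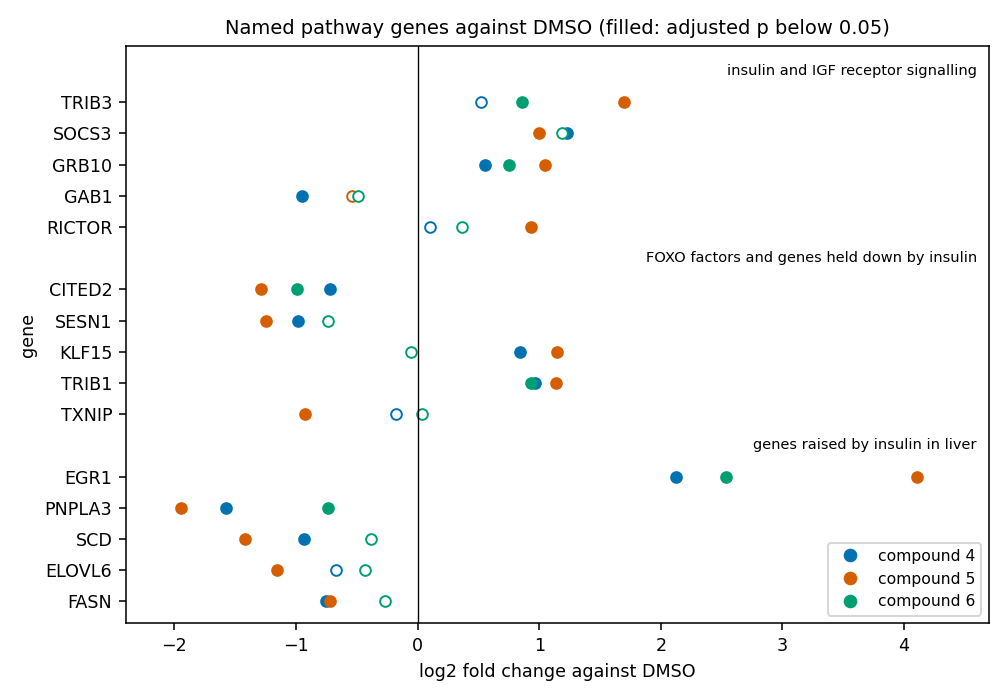
Log2 fold change against DMSO of the 5 genes with the greatest change among called genes of each of 3 lists, by compound; filled circles passed the test. TRIB1 and CITED2 are filled for all 3 compounds on opposite sides of 0, and the highest value is EGR1 with compound 5 (4.11).

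The 6 genes below were named for a pattern over the 8 libraries most like that of IGFBP1 or IGFBP3, among the 9314 genes that averaged 10 CPM or more. Their high r and their changes with the compounds follow in part from this choice. For IGFBP1 they were TNFRSF12A, the receptor of the cytokine TWEAK (Pearson r = 0.994), AVPI1 (0.991), and RPH3AL (0.991). TNFRSF12A rose with all 3 compounds, from 41.8 CPM to 115, 136, and 93.9 CPM. AVPI1 rose with compound 5 and did not pass the test with compounds 4 and 6 (adjusted p = 0.113 and 0.323), and RPH3AL rose with compounds 4 and 5 but did not pass with compound 6 (0.0804). For IGFBP3 they were ASAH1, the lysosomal acid ceramidase (0.989), STAT6 (0.977), and ENG, a TGF-beta coreceptor (0.972). ENG rose from 7.35 CPM to 37.3, 17.7, and 21.8 CPM. ASAH1 and STAT6 rose with compound 4 and did not pass the test with compound 5 (adjusted p = 0.0506 and 0.224) or compound 6 (0.113 and 0.124). IGFBP1 and IGFBP3 themselves had r = 0.703 with each other.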

How the data were processed

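RNA from 8 samples was sequenced as stranded paired-end libraries. The authors estimated transcript abundance with Salmon 1.5.0 on GENCODE transcripts (GRCh38) and summarized it per gene through tximeta. Values were deposited as whole-number estimated counts, with no scaling between libraries, whose totals ranged from 9472261 to 13308975 per library. Floors for a count of 0 cover counting error only, whereas intervals of fold changes include the spread between replicates.

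The analysis used edgeR 4.0.16 under R 4.3.3, with filterByExpr, TMM factors between 0.958 and 1.04, and a quasi-likelihood fit of 4 groups over all 8 samples, with Benjamini-Hochberg adjustment over 13404 genes. CPM are on the scaled library sizes of these genes. Gene models, exon lengths, and 31-base words came from GENCODE 29, an earlier release than that of the counts, on GRCh38, and promoters from RefSeq. Symbols were matched by Ensembl identifier. Members and lists were chosen with earlier results of these data known. All members were named, with up to 5 called genes of largest change per list and, for each called member, the 3 genes with the highest Pearson r and the nearest tested genes. Sample numbers are the days of the labels, so that samples of 1 day count as paired; deviations from the group means correlated between -0.083 and 0.160 for samples of the same day. Alternatives were RLE, upper-quartile, and library-size scaling, other filters, DESeq2 1.42.0, a replicate block, only the groups compared, a cutoff of 0.01, leaving out each library, and 2 exon-length corrections (loess, span 0.5) added after the data had been seen. A sum of the IGF2 and INS-IGF2 counts was not counted as an alternative, since INS-IGF2 was at 0.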

Additional observations from a re-analysis of the deposited data

Results flagged for a closer look

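2 members differed between compounds in a test of the difference itself. IGFBP3 was lower with compound 5 than with compound 4 by -0.99 on the log2 scale, and IGFBP2 by -0.55. The IGFBP2 call was lost when the 2 groups were fitted alone in edgeR (adjusted p = 0.0931). With 1 library left out, the values ran from -1.16 to -0.78 for IGFBP3 and from -0.75 to -0.30 for IGFBP2. The compounds were given at different concentrations, so that compound and concentration cannot be told apart.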

How the results depend on the processing

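Over the alternatives, 850 member fold changes kept their direction and their side of the threshold, 41 passed it where they had not, 26 lost it, and 55 changed sign. Every change of sign was in a value that was not called. The replicate block changed the call of IGFBP1 with compound 6 and no other member call against DMSO or between compounds. With 2 samples a group, leaving out 1 leaves a lone sample that is assumed to vary like the other groups, and both calls with compound 6 were lost without 5 of the 8 libraries. Scaling by library size alone moved the median of all tested genes with compound 5 by -0.105 on the log2 scale, about the shift of IGFBP3 there (0.65 to 0.54).

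The number of members called (2 with each compound against DMSO, 2 for compound 5 against 4, 0 for both other pairs) moved as follows. Without a filter it was 4 with compound 4, 5 with compound 5, 3 with compound 6, and 1 for compounds 5 against 6 and 4 against 6. Where a call was gained without a filter, the adjusted p was far smaller than in the main fit at a similar log2 value. For IGFBP3 between compounds 4 and 6 it was 9.64e-06 at 0.80. The main edgeR fit gave 0.216 at 0.81, and DESeq2 gave 0.0215 at 0.80. With only the 2 groups compared the number of members called was 5 with compound 5, 3 with compound 6, and 1 for compound 5 against 4. Scaling by library size alone gave 3 with compound 4, and with compound 5 it gave 2, with IGF2 in place of IGFBP3. Under the replicate block it was 1 with compound 6. At a cutoff of 0.01 it was 1 with compound 5, 0 with compound 6, and 0 for compound 5 against 4. With the exon-length correction it was 4 with compound 4 and 3 with compounds 5 and 6, and with this and the replicate block 4 with compounds 4 and 5 and 3 with compound 6. DESeq2 gave 3 with each compound against DMSO and 1 for compound 4 against 6. Leaving out 1 library gave 1 to 4 with compound 4, 1 to 5 with compound 5, 0 to 3 with compound 6, 0 to 4 for compound 5 against 4, and 0 to 1 for compound 5 against 6. The lowest counts came without DMSO replicate 2 (1 with compound 4), without DMSO replicate 2 or either compound 5 replicate (1 with compound 5), without either DMSO replicate, either compound 5 replicate, or compound 6 replicate 2 (0 with compound 6), and without either compound 5 replicate (0 for compound 5 against 4, where leaving out either DMSO replicate, compound 4 replicate 2, or either compound 6 replicate gave 1). The highest came without compound 4 replicate 1 (4 with compound 4 and 4 for compound 5 against 4), without either compound 4 replicate (5 with compound 5 and 3 with compound 6), and without compound 6 replicate 2 (1 for compound 5 against 6). The counts of list genes called moved by over 1.5 times for compound 6, to 7 from 4 for receptor signalling and to 6 or 5 from 3 for the FOXO list without a filter or with the exon-length correction, and to 1 from 2 for genes raised by insulin in DESeq2, and the 0 of the other IGF system genes rose to between 1 and 3 under compound 5 and to 1 under compound 6. The cause was not tested.

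These log2 values changed sign. IGFBP6 with compound 5 (-0.0020) became 0.020 with RLE factors, 0.027 without a filter, 0.0045 with at least 10 counts in every sample, 0.019 with only the 2 groups, 0.031 in DESeq2, and 0.22 and 0.21 with the exon-length correction without and with the block. IGFBP4 with compound 5 (0.00) became -0.086 with upper-quartile factors, -0.10 with library size alone, and -0.0026 with the replicate block. IGF2 between compounds 5 and 6 (0.06) became -0.022 and -0.020 with these scalings. With the exon-length correction, without and with the block, IGF1R became -0.0015 and -0.0041 with compound 6 and 0.10 and 0.10 between compounds 4 and 6, IGF2R -0.12 and -0.12 and IGFBP4 0.11 and 0.11 between compounds 5 and 4, and INSR 0.018 and 0.016 between compounds 4 and 6. When 1 library was left out, IGF2 ran from -0.032 to 0.17 between compounds 5 and 6 and from -0.19 to 0.012 between 4 and 6, IGFBP1 from -0.012 to 0.63 between 4 and 6, and IGFBP2 from -0.083 to 0.045 with compound 6. IGFBP4 ran from -0.17 to 0.32, -0.12 to 0.15, and -0.019 to 0.27 with compounds 4, 5, and 6, from -0.32 to 0.19 between 5 and 4, and from -0.31 to 0.19 between 4 and 6. IGFBP6 ran from -0.21 to 0.21 with compound 5 and from -0.14 to 0.52 between 4 and 6. IGF1R ran from -0.30 to 0.38 with compound 4, -0.067 to 0.23 with compound 6, and -0.37 to 0.29 between 4 and 6. IGF2R ran from -0.18 to 0.46 between 5 and 4, -0.20 to 0.10 between 5 and 6, and -0.50 to 0.14 between 4 and 6, and INSR from -0.10 to 0.32 with compound 4 and -0.29 to 0.12 between 4 and 6.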
